A study of Mus musculus with 16 samples.

Results

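The genes Ndrg1, Ankrd37, Kbtbd11, Zfp395, Hilpda, Rgcc, Smtnl2 and Tnfsf9 are 8 of the 11481 genes tested here, and 17 of the 34945 probe sets with a single gene symbol measure them. They were chosen by their signal with the iron chelator dipyridyl (DP) minus their signal with vehicle in primary mouse embryonic fibroblasts. Ndrg1, Ankrd37, Kbtbd11, Zfp395 and Hilpda ranked 14, 2, 6, 7 and 10 of all genes tested by that change in control lines, and Rgcc, Smtnl2 and Tnfsf9 ranked 7, 9 and 12 in lines without an intact CH1 domain. The values with DP and vehicle are therefore given as a description, with no test, and the split of these genes by CH1 dependence follows in part from the way they were chosen. For the 8 genes, only changes between arrays of cells treated with trichostatin A (TSA), which the choice did not use, were tested. The spread in those tests, the signal filter and the probe set used for each gene drew on all 16 arrays. The tests are therefore not fully independent of the choice.

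RNA was measured on 16 arrays, 1 for each of 4 lines under each of 4 treatments. Line triCH1flox1 had the genotype CBP CH1/flox;p300 CH1/CH1 and triCH1flox2 had CBP CH1/CH1;p300 CH1/flox, where CH1 marks an allele with the mutated domain; both are called triCH1 lines. Line flox1 was CBP+/flox and flox2 was p300 +/flox, and both are called control lines. All 4 lines came from mid-gestation (e14.5) embryos, carried a conditional (flox) allele and received adenovirus with the Cre recombinase, which deletes it, at passage 3, and the control lines are no exception. Cells then expanded at least 100-fold before treatment under normoxia. They received 100 µM DP, ethanol vehicle, 100 ng/ml TSA followed by DP after 30 min (TSA+DP), or TSA alone, and were lysed 3 h after the second addition. No line had a replicate culture on a second array, so the spread behind a p-value here comes from differences between lines, not between repeat cultures. That spread was pooled over all treatments and moderated with that of other genes. A p-value therefore does not measure how unlike the changes of the lines were in the comparison tested. In a bulk culture, fewer cells of a type and less RNA per cell cannot be told apart.

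DP removes the iron that prolyl hydroxylases need to mark the alpha subunits of the hypoxia-inducible factor HIF for destruction, so that HIF builds up as it does in low oxygen. HIF then recruits the coactivators CBP and p300, whose CH1 domain binds the C-terminal activation domain of the alpha subunit. TSA inhibits histone deacetylases. The 8 genes have unlike roles. Ndrg1 encodes a stress-induced cytoplasmic protein, Hilpda a small lipid droplet protein that inhibits the triglyceride lipase Pnpla2, and Rgcc a regulator of the cell cycle. Tnfsf9 encodes the ligand of the T cell receptor 4-1BB. Ankrd37 is an ankyrin repeat protein, Kbtbd11 carries kelch repeats and a BTB domain, Zfp395 is a zinc finger protein and Smtnl2 is related to smoothelin.

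The arrays were alike in scale, with medians of 103 to 153.8 signal units. The array of flox1 with vehicle, was unlike the rest in its Gapdh ratio of 3' to 5' signal, 2.593 against 0.907 to 1.263 on the other 15 arrays, so changes over vehicle are given for flox1 and flox2 separately. The fibroblast label was met by all 10 of 10 markers at a signal of 200 or more on at least 2 arrays, while 0 of 5 endothelial, 2 of 5 macrophage and blood, 3 of 5 epithelial, 2 of 5 skeletal muscle, 1 of 4 measured adipocyte and 4 of 5 neural markers reached that level. Xist ran from 2109 to 3067 in the triCH1 lines and from 26.5 to 245.5 in the control lines, and the Y-linked Eif2s3y ran from 8.9 to 82.9 in the triCH1 lines and from 974 to 1519 in the control lines, so that CH1 status and the sex of the embryos cannot be told apart.

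Promoter sequences were matched for 4 of the 8 genes. They are shown for Ankrd37 and Hilpda, whose DP responses in control lines were among the strongest, and for Smtnl2, whose changes overlapped between the kinds of line on its main probe set. Each runs 5′ to 3′ on the gene's strand, from 250 bases before to 50 bases after the RefSeq start on the mouse assembly GRCm38.p6. Capitals mark ACGTG and GCGTG, the core letters of the element that HIF binds, found on either strand.
Ankrd37, chr8:45999801-46000100, minus strand: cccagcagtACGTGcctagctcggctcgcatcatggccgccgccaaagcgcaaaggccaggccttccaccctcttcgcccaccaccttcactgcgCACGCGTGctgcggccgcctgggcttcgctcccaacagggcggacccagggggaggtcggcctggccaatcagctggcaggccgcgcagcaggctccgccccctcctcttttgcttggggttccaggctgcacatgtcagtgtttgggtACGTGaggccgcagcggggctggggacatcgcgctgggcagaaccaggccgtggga
Hilpda, downstream of its 2 listed starts, chr6:29272376-29272675, plus strand: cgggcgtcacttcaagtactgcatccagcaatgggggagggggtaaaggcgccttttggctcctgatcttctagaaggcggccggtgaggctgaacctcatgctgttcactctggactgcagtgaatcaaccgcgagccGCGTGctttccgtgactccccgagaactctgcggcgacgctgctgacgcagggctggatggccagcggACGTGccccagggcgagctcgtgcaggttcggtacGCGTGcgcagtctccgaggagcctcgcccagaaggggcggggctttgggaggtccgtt
Smtnl2, chr11:72411664-72411963, minus strand: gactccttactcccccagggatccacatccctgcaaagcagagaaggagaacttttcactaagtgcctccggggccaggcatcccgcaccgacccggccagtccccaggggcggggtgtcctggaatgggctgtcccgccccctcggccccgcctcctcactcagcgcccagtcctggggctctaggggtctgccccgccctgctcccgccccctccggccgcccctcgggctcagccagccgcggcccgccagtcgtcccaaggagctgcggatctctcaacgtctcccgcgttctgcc
The Ankrd37 window held 4 matches, at -241, -155, -152 and -6 from the start, where those at -155 and -152 lie on opposite strands and overlap. The Hilpda window held 3, at -111, -43 and -8. The window of its other start overlaps it and held 1, which is the same site as the match at -111. The Rgcc window held 1 match and the Smtnl2 window 0. Among 32851 promoter windows of the same length, 43.8% held at least 1 match, 8.93% held 3 or more and 3.86% held 4 or more, and among the 11930 windows of genes tested here 62.0% held at least 1. The shares with 3 or more and 4 or more were not computed for the windows of tested genes, where matches were more common. A match is a run of letters and no evidence of binding. The mean DP change over the 4 lines was 3.25 for Ankrd37, 2.12 for Hilpda, 1.75 for Rgcc and 2.03 for Smtnl2, on main probe sets. Rgcc, with 1 match, thus had a smaller change than Smtnl2, with 0. Whether match counts go with the size of the change was not tested.

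DP gave higher signal than vehicle for all 8 genes in all 4 lines, which is how they were chosen; 7.46% of all genes tested did so. As the members' median, the change on the log2(signal + 50) scale was 1.60 in the triCH1 lines and 2.73 in the control lines, against medians of -0.02 and -0.04 over all genes tested. The response was smaller in both triCH1 lines for Ndrg1, Kbtbd11, Zfp395 and Hilpda, smaller on average for Ankrd37, and not clearly smaller for Rgcc, Smtnl2 and Tnfsf9. The triCH1 change was below both control lines for 4 of 8 members, against 12.8% of all genes tested and 52.0% of 50 HIF targets that are not among the 8.

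**Figure D1:**
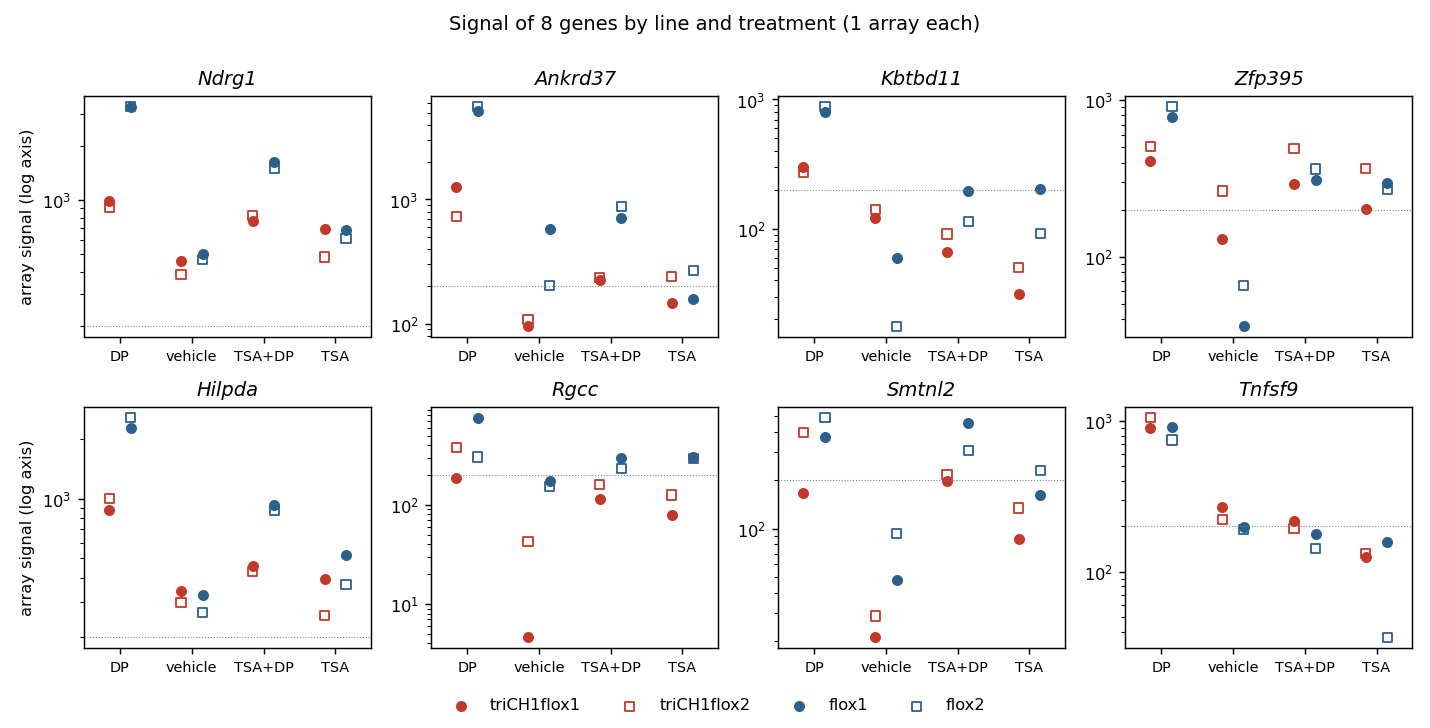
Array signal (log axis) of the main probe set of each gene under DP, vehicle, TSA+DP and TSA, with triCH1 lines in red on the left and control lines in blue on the right of each position; each point is 1 array and the dotted line marks a signal of 200. Ndrg1 with DP sits at 911 and 986 in the triCH1 lines and at 3282 and 3295 in the control lines, whereas Tnfsf9 with DP overlaps between the kinds of line.

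Ndrg1 showed the pattern most clearly. With DP its signal was 986 in triCH1flox1 and 911 in triCH1flox2, and 3282 in flox1 and 3295 in flox2, while with vehicle it was 460.0 and 388.5 in those triCH1 lines and 502 and 469 in those control lines. The vehicle levels lay close together in all 4 lines, and the DP levels of the triCH1 lines were both far below those of the control lines. The DP change was 1.02 and 1.13 in triCH1flox1 and triCH1flox2, against 2.59 and 2.69 in flox1 and flox2, which is a mean change of 2.11-fold in triCH1 lines and 6.23-fold in control lines on the log2(signal + 50) scale. With TSA present, DP gave 768 and 819 in triCH1flox1 and triCH1flox2 over TSA levels of 691 and 484, and 1617 and 1495 in flox1 and flox2 over TSA levels of 685.5 and 614. The control lines still separated from their TSA arrays, while triCH1flox1 barely did.

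Ndrg1 has 5 probe sets, all past the filter, and the change without TSA was smaller in the triCH1 lines on average on each of the 5. It averaged 0.22 to 1.56 in triCH1 lines and 1.96 to 3.61 in control lines across the 5 probe sets. On 1 of them the lines overlapped, with 2.14 in triCH1flox2 and 1.95 in flox2. The dimmest, whose signal was at least 200 on 5 of 16 arrays, had -0.44 and 0.89 in triCH1flox1 and triCH1flox2.

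On main probe sets, Kbtbd11 had the largest gap between the kinds of line. Its other probe sets did not pass the filter and did not show this gap. Their mean DP changes were 0.20, 0.53 and 0.43 in triCH1 lines and -0.65, 0.78 and -0.06 in control lines. The values below are from the probe set that passed. With DP its signal was 299 and 275.5 in triCH1flox1 and triCH1flox2 and 795 and 881 in flox1 and flox2, against 121 and 140.4 in the triCH1 lines and 59.7 and 17.7 in the control lines with vehicle. Vehicle levels were thus higher in the triCH1 lines and DP levels lower. The change was 1.03 and 0.77 in triCH1flox1 and triCH1flox2 and 2.95 and 3.78 in flox1 and flox2. In the triCH1 lines the mean change was 26.8% of that of the control lines on the log2(signal + 50) scale, and the lowest signals lie near the pseudocount of 50, which makes folds smaller than they were. The signal was at least 200 on only 1 array without DP alone, so Kbtbd11 passed the filter through its DP arrays.

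Zfp395, whose human counterpart ZNF395 is known as a hypoxia-responsive factor, had the same pattern. With DP it reached 406.5 and 504.5 in triCH1flox1 and triCH1flox2 and 787 and 912 in flox1 and flox2, against 129.7 and 263 in triCH1 and 36.0 and 65.9 in control lines with vehicle. As for Kbtbd11, vehicle levels were higher and DP levels lower in the triCH1 lines, without overlap. The change was 1.35 and 0.83 in triCH1flox1 and triCH1flox2, against 3.28 and 3.05 in flox1 and flox2.

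Hilpda reached 874 and 999.8 in triCH1flox1 and triCH1flox2 with DP and 2256 and 2549.5 in flox1 and flox2, against 341 and 299 in the triCH1 lines and 326 and 266 in the control lines with vehicle. Its vehicle levels overlapped between the kinds of line and its DP levels did not. The change was 1.24 and 1.59 in triCH1flox1 and triCH1flox2 and 2.62 and 3.04 in flox1 and flox2. The mean triCH1 change was 50.2% of the control change on the log2(signal + 50) scale.

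Ankrd37, known as a HIF target, ranked 3 of all genes by its DP change in the triCH1 lines and 2 in the control lines. With DP it reached 1268 and 732 in triCH1flox1 and triCH1flox2 and 5180.2 and 5589.6 in flox1 and flox2, against 95.6 and 109 in triCH1 lines and 581.5 and 204 in control lines with vehicle. The DP signals of the triCH1 lines were far below those of the control lines, and the vehicle signals were also lower, and the changes overlapped. They were 3.18 and 2.30 in triCH1flox1 and triCH1flox2 and 3.05 and 4.47 in flox1 and flox2. The value of flox1 rests on the vehicle array with the high Gapdh ratio; against flox2 alone both triCH1 changes were smaller.

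Rgcc, Smtnl2 and Tnfsf9 were not weaker in the triCH1 lines on their main probe sets. Rgcc had 186 and 379 with DP in triCH1flox1 and triCH1flox2 and 754.5 and 303.5 in flox1 and flox2, against 4.6 and 42.4 in triCH1 and 172 and 152 in control lines with vehicle. The DP levels overlapped, and the higher change in triCH1 lines, 2.11 and 2.21 against 1.85 and 0.80 in flox1 and flox2, stands beside triCH1 vehicle signals below the pseudocount of 50. The other Rgcc probe set gave -0.21 and -0.16 in triCH1flox1 and triCH1flox2 and 0.80 and 1.29 in flox1 and flox2, so the direction of the difference turns with the probe set.

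Smtnl2 had 166 and 395 with DP in triCH1flox1 and triCH1flox2 and 371 and 488 in flox1 and flox2, against 21.1 and 28.7 in the triCH1 lines and 47.9 and 93.5 in the control lines with vehicle. Its changes overlapped fully, at 1.60 and 2.50 in triCH1flox1 and triCH1flox2 and 2.11 and 1.91 in flox1 and flox2. Its second probe set averaged 0.57 in the triCH1 lines and 2.00 in the control lines, so that the 2 probe sets differ. The triCH1 vehicle signals of the main probe set, and that of flox1, lay below the pseudocount of 50, which makes these changes smaller than the ratio of signals: group means were 280.6 with DP and 24.9 with vehicle in triCH1 lines, and 429.8 with DP and 70.7 with vehicle in control lines.

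Tnfsf9 had 1 probe set. It reached 894.5 and 1050.4 with DP in triCH1flox1 and triCH1flox2 and 919 and 748 in flox1 and flox2, against 267 and 223 in triCH1 lines and 197 and 191 in control lines with vehicle. DP levels and changes overlapped, while vehicle levels were higher in both triCH1 lines. The changes were 1.57 and 2.01 in triCH1flox1 and triCH1flox2 and 1.97 and 1.73 in flox1 and flox2. As a share of the control change, the mean triCH1 change was 96.8%.

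**Figure D2:**
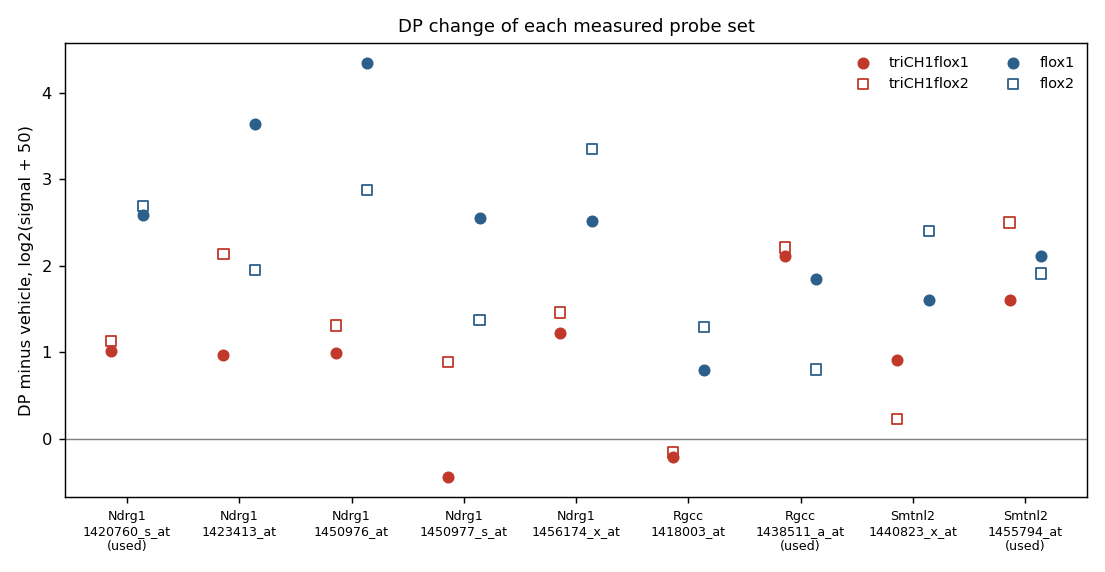
DP minus vehicle on the log2(signal + 50) scale for each measured probe set of Ndrg1, Rgcc and Smtnl2, with triCH1 lines in red on the left and control lines in blue on the right; each point is 1 line. The Ndrg1 probe sets averaged 0.22 to 1.56 in triCH1 lines and 1.96 to 3.61 in control lines, while the 2 probe sets of Rgcc and of Smtnl2 did not give the same picture.

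Signal with TSA+DP was below that with DP in all 4 lines for 7 of the 8 genes, against 20.7% of all genes tested and 68.0% of the other HIF targets; the DP arrays chose the members, so no test is given. Smtnl2 was the exception, with 0.19 and -0.74 in triCH1flox1 and triCH1flox2 and 0.25 and -0.60 in flox1 and flox2. As the mean over 4 lines, the difference was largest for Ankrd37, -2.26 and -1.46 in triCH1flox1 and triCH1flox2 and -2.78 and -2.60 in flox1 and flox2, followed by Tnfsf9, with -1.83 and -2.17 in triCH1flox1 and triCH1flox2 and -2.09 and -2.05 in flox1 and flox2. In the control lines alone, Kbtbd11 had a mean of -2.13, next to -2.07 for Tnfsf9.

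The genes reached these values in unlike ways. For Tnfsf9, TSA alone was lower than vehicle in 4 of 4 lines, with differences of -0.86 and -0.58 in triCH1flox1 and triCH1flox2 and of -0.26 and -1.48 in flox1 and flox2, and TSA+DP also stayed below vehicle in all 4 lines. Of all genes tested, 18.5% were lower than vehicle in all 4 lines with TSA and 20.9% with TSA+DP. The Tnfsf9 signal of flox2 with TSA was 36.6, below the pseudocount of 50. For Zfp395, TSA alone was higher than vehicle, by 0.49 and 0.41 in triCH1flox1 and triCH1flox2 and by 2.02 and 1.47 in flox1 and flox2. The control-line values rest on the low vehicle signals of 36.0 and 65.9 in flox1 and flox2. TSA alone was higher than vehicle in all 4 lines for 22.5% of all genes tested. For Zfp395, DP over TSA added 0.44 and 0.39 in triCH1flox1 and triCH1flox2 and 0.05 and 0.37 in flox1 and flox2. Kbtbd11 parted by kind of line, with TSA minus vehicle of -1.07 and -0.93 in triCH1flox1 and triCH1flox2 and 1.21 and 1.07 in flox1 and flox2. These values rest on low signals. With TSA, Kbtbd11 had 31.4 and 50.2 in triCH1flox1 and triCH1flox2 and 203.5 and 92.4 in flox1 and flox2. As a share of the log2 change, Ndrg1 kept 38.9% of its DP response in triCH1 lines and 45.5% in control lines when TSA was present, and Ankrd37 kept 8.39% in triCH1 lines and 45.7% in control lines. Kbtbd11 kept 55.6% in triCH1 lines and 2.68% in control lines, and Zfp395 kept 37.6% in triCH1 lines and 6.62% in control lines, where the triCH1 responses were small to begin with. The shares in triCH1 and control lines were 29.6% and 33.9% for Hilpda, 34.1% and 39.3% for Smtnl2 and 28.5% and 35.1% for Tnfsf9. For Rgcc they were 13.9% and -12.0%, the latter a change below 0. Every share divides by the DP change that the genes were chosen on, which can make it too small.

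With TSA present, the effect of DP was measured on arrays that the ranking by DP minus vehicle had not used. Earlier results of these data were known when members and tests were chosen, so these tests are not held-out support. TSA+DP was higher than TSA in all 4 lines for 5 of 8 members, against 7.46% of all genes tested and 58.0% of the other HIF targets, and the members' median was 0.42 in triCH1 lines and 0.72 in control lines, against -0.01 and 0.01 over all genes tested. In the control lines Ndrg1 rose by 1.20 ± 0.179 (SE, 2 lines, 2.30-fold, limma adjusted p = 0.00395), and it was the 1 of 8 members called; 0.113% of all genes were called up. With all probe sets fitted separately, those of Ndrg1 gave 1.05 to 1.31 in control lines. The limma adjusted p was then 0.00918 on the main probe set, 0.0258 on another and 0.999 on the rest. In the triCH1 lines 0 of 8 members were called, against 0.061% of all genes, where limma gave 666 genes an unadjusted p under 0.05. Over the 4 lines Ndrg1 rose by 0.81 ± 0.127 (adjusted p = 0.00669), again as the 1 member called, against 0.139% of all genes. With flox1 or flox2 left out, the control-line estimate of Ndrg1 was 1.22 or 1.18 and no longer passed (adjusted p = 0.504 and 0.354); the control class then held 1 line, which was assumed to vary like the other groups. The call over 4 lines was lost without flox1 (adjusted p = 0.223), flox2 (0.225) or triCH1flox2 (0.339), with the mean of its probe sets (0.105) and with no variance trend (0.054).

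None of the other members passed. Ankrd37 had 1.88 in flox1 and 1.56 in flox2 and 0.49 and -0.03 in triCH1flox1 and triCH1flox2. Its estimate was 1.72 ± 0.367 in the control lines (95% interval 0.94 to 2.49, adjusted p = 0.148), and it passed the threshold when the vehicle array of flox1 was left out (adjusted p = 0.00887). Hilpda had 0.20 and 0.63 in triCH1flox1 and triCH1flox2 and 0.78 and 1.14 in flox1 and flox2, with a control-line estimate of 0.96 (interval 0.49 to 1.42, adjusted p = 0.23) and an estimate of 0.69 over the 4 lines (adjusted p = 0.175, against 0.44 for Ankrd37). Smtnl2 and Tnfsf9 had estimates of 0.70 and 0.51 in triCH1 lines and 0.79 and 0.65 in control lines. For Kbtbd11, Zfp395 and Rgcc the control-line estimates were 0.09, 0.21 and -0.16, with intervals that spanned 0.

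Whether the DP response over TSA differed between the kinds of line was tested directly, and limma called 0 of 8 members and 0 of all 11481 genes (0%), with 479 genes at an unadjusted p under 0.05. The estimates, triCH1 minus control, were -0.78 for Ndrg1 (95% interval -1.31 to -0.24, adjusted p = 0.951), -1.49 for Ankrd37 (interval -2.58 to -0.39, adjusted p = 0.951) and -0.54 for Hilpda (interval -1.20 to 0.12). For Smtnl2 and Tnfsf9 they were -0.09 (interval -1.25 to 1.07) and -0.14 (interval -1.09 to 0.82), which does not show that the kinds of line responded alike. Kbtbd11, Zfp395 and Rgcc had 0.41, 0.20 and 0.46. Across the Ndrg1 probe sets the difference ran from -1.21 to 0.33. The dimmest was the only one above 0, with 1.64 in triCH1 lines and 1.31 in control lines.

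**Figure D3:**
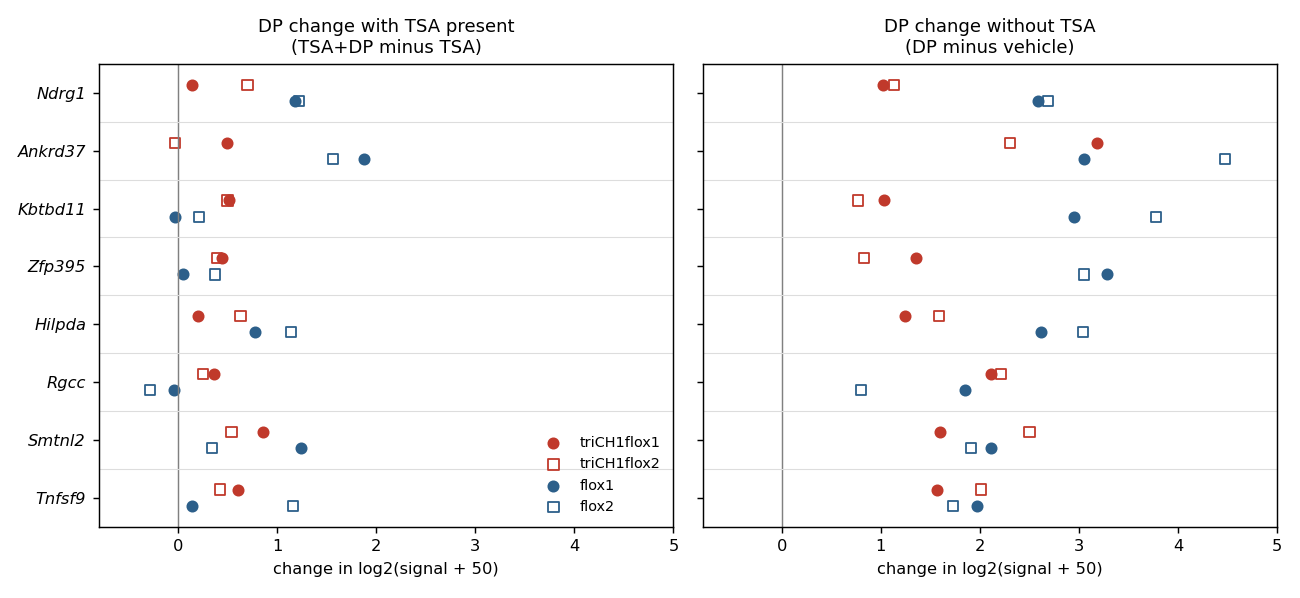
DP change of each gene in each line on the log2(signal + 50) scale, with TSA present (TSA+DP minus TSA) on the left and without it (DP minus vehicle) on the right; triCH1 lines are in red and control lines in blue. Without TSA the control lines of Ndrg1, Kbtbd11, Zfp395 and Hilpda lie to the right of the triCH1 lines, and with TSA the values of most genes crowd toward 0.

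**Figure D4:**
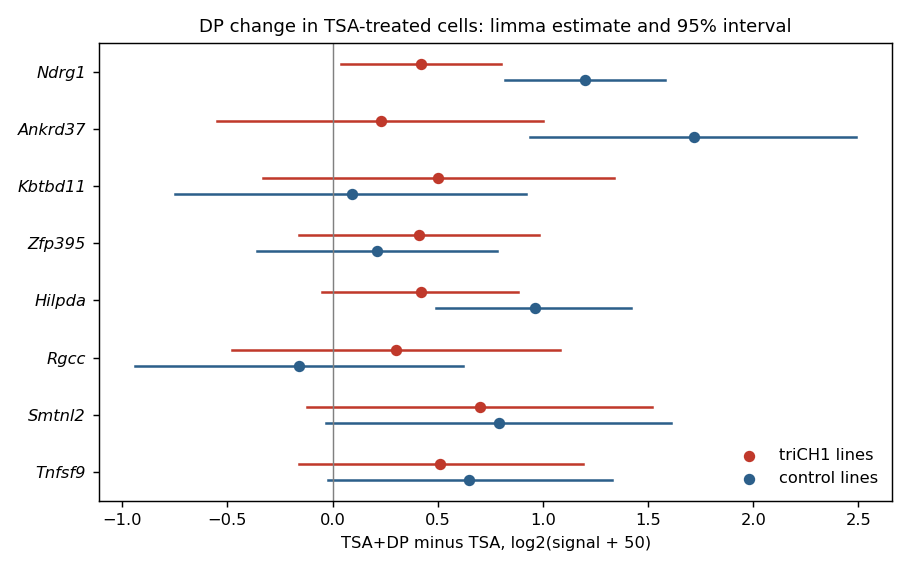
limma estimate of TSA+DP minus TSA with its 95% interval for each gene, in triCH1 lines (red, above) and control lines (blue, below), on the log2(signal + 50) scale. The control-line intervals of Ndrg1, Ankrd37 and Hilpda lie above 0, at 0.82 to 1.58 for Ndrg1.

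The coactivator transcripts had lower signal in TSA-treated cells. Where the probes lie relative to the altered exons was not determined, so that their levels do not check the genotypes. Crebbp, which encodes CBP, had 384 to 674 signal units with TSA+DP and 361 to 828 with TSA, against 1425 to 2499.9 with vehicle and 1554 to 2069 with DP, across the 4 lines. Ep300, which encodes p300, had 271 to 433 with TSA+DP and 206 to 506 with TSA, against 645 to 1319 with vehicle and 605 to 1945 with DP. Hif1a stayed between 5958 and 7449 on all 16 arrays, and Epas1 had 542 to 684 with TSA+DP and 541.5 to 684 with TSA, against 189 to 220.2 with vehicle and 49.5 to 358.5 with DP. The part these levels have in the TSA values of the 8 genes was not tested.

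Other HIF targets, of a list that excludes the 8 genes, were set beside them. Of 60 listed genes 50 were tested, and with DP over vehicle 31 rose and 0 fell in the triCH1 lines, against 0.566% of all genes called up, while 34 rose and 0 fell in the control lines, against 1.21% of all genes. The triCH1 count was 12 without triCH1flox2 and 17 without triCH1flox1, and the control count was 32 without the vehicle array of flox1. Over TSA, 5 rose in the triCH1 lines (0.061% of all genes did), 9 in the control lines (0.113%) and 11 over the 4 lines (0.139%). The triCH1 count over TSA was 0 without triCH1flox2 and 1 without triCH1flox1, and the control count was 5 without flox2. Of the 4 named here, all kept their control-line call under the 14 alternatives tried, and all lost the triCH1 call without triCH1flox2, at adjusted p of 0.0522 for Bnip3, 0.428 for Ier3, 0.164 for Ero1a and 0.304 for Hk2. These 4 were named because they had the smallest p over TSA over the 4 lines, so their calls over TSA follow in part from that choice. Bnip3, which acts in mitochondrial autophagy, rose 2.50-fold in triCH1 lines and 2.43-fold in control lines over TSA (adjusted p = 5.87e-05 and 2.39e-05). The stress gene Ier3 rose 1.65-fold in triCH1 lines and 3.35-fold in control lines (adjusted p = 0.0277 and 8.45e-07), and the test of that difference gave an adjusted p of 0.169. Ero1a, an oxidase of protein folding, rose 2.14-fold in triCH1 lines and 3.12-fold in control lines (adjusted p = 0.00192 and 6.32e-06). The glycolytic enzyme Hk2 rose 1.88-fold in triCH1 lines and 2.39-fold in control lines (adjusted p = 0.00509 and 4.03e-05).

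Relatives and partners of the 8 genes, such as other Ndrg and Kbtbd genes, gave no call. Of 32 listed, 16 were tested and limma called 0 with DP over vehicle in either kind of line, where 3 had an unadjusted p under 0.05 in triCH1 lines and 1 in control lines. Ndrg2 had 1.31 in triCH1 lines (adjusted p = 0.546) and 1.59 in control lines (adjusted p = 0.0875). Pnpla2, the lipase that Hilpda inhibits, had -0.59 in triCH1 lines (adjusted p = 0.585) and -0.004 in control lines (adjusted p = 0.995).

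Across the 16 arrays, the signals of the 8 genes correlated with each other at a Pearson r of 0.34 to 0.96 (28 pairs, median 0.726); the arrays share lines and treatments, and no p is given. The genes outside the list most like Ndrg1 were Egln3 (r = 0.97) and Ier3 (0.959), and those most like Ankrd37 were Fam162a (0.909) and P4ha1 (0.907). For Hilpda they were Fam162a (0.961) and Pfkfb3 (0.949), for Kbtbd11 Kdm3a (0.892) and Rnf19a (0.877), and for Zfp395 Pcgf5 (0.89) and Me2 (0.882). Rgcc was most like P4ha2 (0.818) and Tmem45a (0.81), Smtnl2 like Nrn1 (0.899) and Tbl2 (0.897), and Tnfsf9 like Cnot7 (0.958) and Eif1b (0.923).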

How the data were processed

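The authors deposited 1 intensity per probe set, which per the labels came from the statistical algorithm of the array maker and was scaled to a 2% trimmed mean of 500 on each array; the deposited values met that target. The software version is not given in the sources used here. Of 45101 probe sets, 34945 had a single symbol in the platform table, 932 had several and 9160 had none. Values were analysed as log2(signal + 50). Probe sets with a signal of at least 200 on at least 2 arrays (19895) were kept, and each of 11481 genes was represented by its passing probe set with the highest mean log2 value, called its main probe set. All 8 members passed, on 14 of 17 probe sets. limma 3.58.1 (R 4.3.3) fitted 8 group means with a term for line within class and a variance trend (6 residual, 10.5 prior degrees of freedom), and p values were adjusted over all genes by Benjamini and Hochberg. The line term rests on the labels, since each line received all 4 treatments; deviations of arrays of the same line correlated at 0.0755 to 0.318 in triCH1 and 0.161 to 0.326 in control lines. Members, lists and tests were chosen with earlier results of these data known. Named genes were the members, the 2 genes most correlated with each, the 4 HIF targets with the smallest p over TSA, any listed relative, the marker lists, and CBP, p300 and HIF genes; Xist and Eif2s3y were added after their values were seen. The fit was tested on simulated data. There the test of the difference called 4% of genes at a true log2 difference of -0.5, 20% at -1 and 80% at -2. The test in control lines called 42% at a true log2 change of 1 and 94% at 2. Smaller differences could thus go uncalled. Figures used Python 3.11.15 and matplotlib 3.10.9.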

Additional observations from a re-analysis of the deposited data

Results flagged for a closer look

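On the probe sets past the filter, both triCH1 lines moved one way and both control lines the other in 7 of the changes computed. TSA minus vehicle of Kbtbd11 differed by -2.14 (triCH1 minus control, log2(signal + 50) scale), with -1.07 and -0.93 in triCH1flox1 and triCH1flox2 and 1.21 and 1.07 in flox1 and flox2, and its TSA+DP minus vehicle differed by -1.73. Apart from the arrays with DP alone, Kbtbd11 reached a signal of 200 on only 1 array. On the second Rgcc probe set, DP minus vehicle differed by -1.23, TSA minus vehicle by -1.48 and TSA+DP minus vehicle by -1.28. On the dimmest Ndrg1 probe set, TSA+DP minus DP differed by 1.52, with 1.66 and 0.69 in triCH1flox1 and triCH1flox2 and -0.27 and -0.43 in flox1 and flox2. These 6 differences were not tested, since the DP and vehicle arrays chose the genes. The other one, TSA+DP minus TSA of Rgcc on its main probe set, was 0.46 and did not pass when tested (limma adjusted p = 0.956).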

How the results depend on the processing

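The counts of calls and the values over TSA were recomputed under 14 alternatives, or 13 for Kbtbd11, Rgcc and Smtnl2; for HIF targets over TSA and for the relatives these were chosen after seeing the data. Changes over vehicle of the 8 genes were not recomputed. The count of members called up over TSA in control lines (1) was 0 with the mean of all passing probe sets, 0 with no variance trend, 2 without the flox1 vehicle array and 0 to 1 with a line left out. Over the 4 lines (1) it was 0 with the mean of probe sets, 0 with no variance trend and 0 to 1 with a line left out. With no replicate block for line, these counts stayed at 1 and 1, 0 members were called in triCH1 lines or for the difference, and HIF targets called over vehicle numbered 23 in triCH1 and 34 in control lines. The HIF count in triCH1 lines (31) was 12 with no variance trend and 12 to 28 with a line left out. Over TSA, the HIF count in triCH1 lines (5) was 3 with all probe sets fitted separately, 1 with no variance trend, 2 with no replicate block and 0 to 4 with a line left out; in control lines (9) it was 4 with no variance trend and 5 to 10 with a line left out, and over the 4 lines (11) 7 with no variance trend. Relatives stayed at 0. Over all genes, calls up over vehicle in control lines (139) were 83 with no variance trend, 86 without the flox1 vehicle array and 55 without flox1, and in triCH1 lines (65) 27 with no variance trend, 36 without triCH1flox1 and 17 without triCH1flox2. Calls up over TSA in control lines (13) were 5 with no variance trend and 7 without flox2, in triCH1 lines (7) 1 with no variance trend, 4 with no replicate block, 3 without triCH1flox1 and 1 without triCH1flox2, and over the 4 lines (16) 9 with no variance trend. Ndrg1 over TSA in control lines ranged from 1.05 to 1.24 and was called under 10 of 14 alternatives; the mean of its probe sets gave an adjusted p of 0.164 and no variance trend 0.0506. Uncalled values that changed sign were Rgcc in control lines with the mean of probe sets (0.17), and, with a line left out, Kbtbd11 in control lines (-0.03 to 0.21), Ankrd37 in triCH1 lines (-0.03 to 0.49), and the differences for Smtnl2 (-0.54 to 0.36, with 0.07 without triCH1flox2) and Tnfsf9 (-0.65 to 0.37). The causes were not tested. A stricter filter on low signal removed Kbtbd11, Rgcc and Smtnl2. The number of arrays limits the precision.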
